A study of Saccharomyces cerevisiae with 10 samples.

Results

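HK10 is a diploid of the budding yeast Saccharomyces cerevisiae that was measured as 2 purified isolates, A and B, and the members described here are the arrays that carry that name in their titles, 2 of the 10 arrays of the series. They were set against 6 independent zygotes, 4 from the cross of MD893-1 with LSY3454-2 and 2 from the cross of MD893-2 with LSY3454-2. Every isolate, HK10 included, is labelled as a diploid of W303-1A and YJM789 and was grown in YPD medium, and its genomic DNA, labelled with Cy5, was hybridised together with DNA of JSC24, a control diploid labelled with Cy3. The labels give neither the genotype of HK10 nor those of the crossed parents, nor do they say how HK10 arose or whether A and B come from separate cultures, so a p-value over A and B measures in part the spread within a single name.

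A diploid made from a pair of diverged parents is heterozygous at every site where they differ, and a repaired chromosome break can be seen as a stretch that has become homozygous. Gene conversion copies a short stretch from the homolog and leaves both flanks heterozygous. A crossover, or break-induced replication, leaves homozygosity from the exchange to the end of the arm. The series title concerns genome instability that arises when RNase H2, which nicks DNA strands next to ribonucleotides, acts on those left in the genome.

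For each SNP the table holds probes for an S and a Y allele, letters that the labels do not define. The difference d is the S probes' mean log2 ratio less the Y probes' mean, so that a heterozygous SNP lies near 0, loss of the Y allele moves d up, and loss of the S allele moves d down. A value of d was obtained at 12882 SNPs in HK10 A and 12891 in HK10 B, and at 12324 to 13377 SNPs in the zygotes. Probes without a value made up 5.53% in HK10 A and 5.94% in HK10 B, against 0.857% to 10.5% in the zygotes. The noise of d, the scale of its scatter around 0, was 0.126 in HK10 A and 0.151 in HK10 B, inside the 0.126 to 0.235 of the zygotes. Positions are those written in the table, whose genome build is not given in the sources used here, so no gene was placed on them.

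Both HK10 isolates carried loss of heterozygosity (LOH) on 6 chromosomes, with long stretches on IV, X, XII and XVI and a single short tract each on II and XIII, in regions where the zygotes stayed heterozygous. An LOH tract was a run of at least 5 SNPs assigned to a homozygous state by a hidden Markov model, and tracts found in all zygotes of a cross were left out. HK10 A and HK10 B had 14 tracts each, of which 5 were S homozygous and 9 were Y homozygous in either isolate. Of the zygotes, 4 had none and zygote 2 of each cross had 1 call of 5 SNPs on chromosome V. At that place the uncalled zygotes had median d of -1.89 to -1.04, over too few measured SNPs for a call. In the 2 called zygotes the median S signal there was 0.09 and 0.11 and the median Y signal 1.90 and 1.73. The call thus came from a high Y signal, and the S signal was not lowered. With tracts called as unbroken runs of SNPs past 1.5 in place of the model, the counts were 29 in HK10 A and 33 in HK10 B. LOH covered 16.9% of the assayed 11559 kb in HK10 A and 10.7% in HK10 B, and at most 0.0264% in any zygote, from the chromosome V call. The means were 13.8 ± 4.38% in HK10 (SD, n = 2) and 0.0088 ± 0.0136% in zygotes (SD, n = 6), and the sets differed by more than the spread in either one. The zygote mean was 0.0238% without zygote 1 and 0.0185% without zygote 2 of the MD893-2 cross. The rule that leaves out tracts of a whole cross needs at least 2 zygotes of it. With 1 left, calls on chromosome XV that are otherwise left out were counted, and the zygotes had a mean of 1.2 and 1 tracts. With the tracts left out above counted too, HK10 A and HK10 B had 15 tracts each and the zygotes a mean of 2.17, and the zygotes had 0.0725% of the genome in LOH. An exact permutation test over the 28 splits of 2 against 6 arrays, with the smaller tail doubled, returned p = 0.0714 for the tract count and p = 0.0714 for the share in LOH, the smallest that doubling allows. The exact permutation p counted by absolute difference, an alternative added after seeing the data, was 0.0357 for each.

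**Figure D1:**
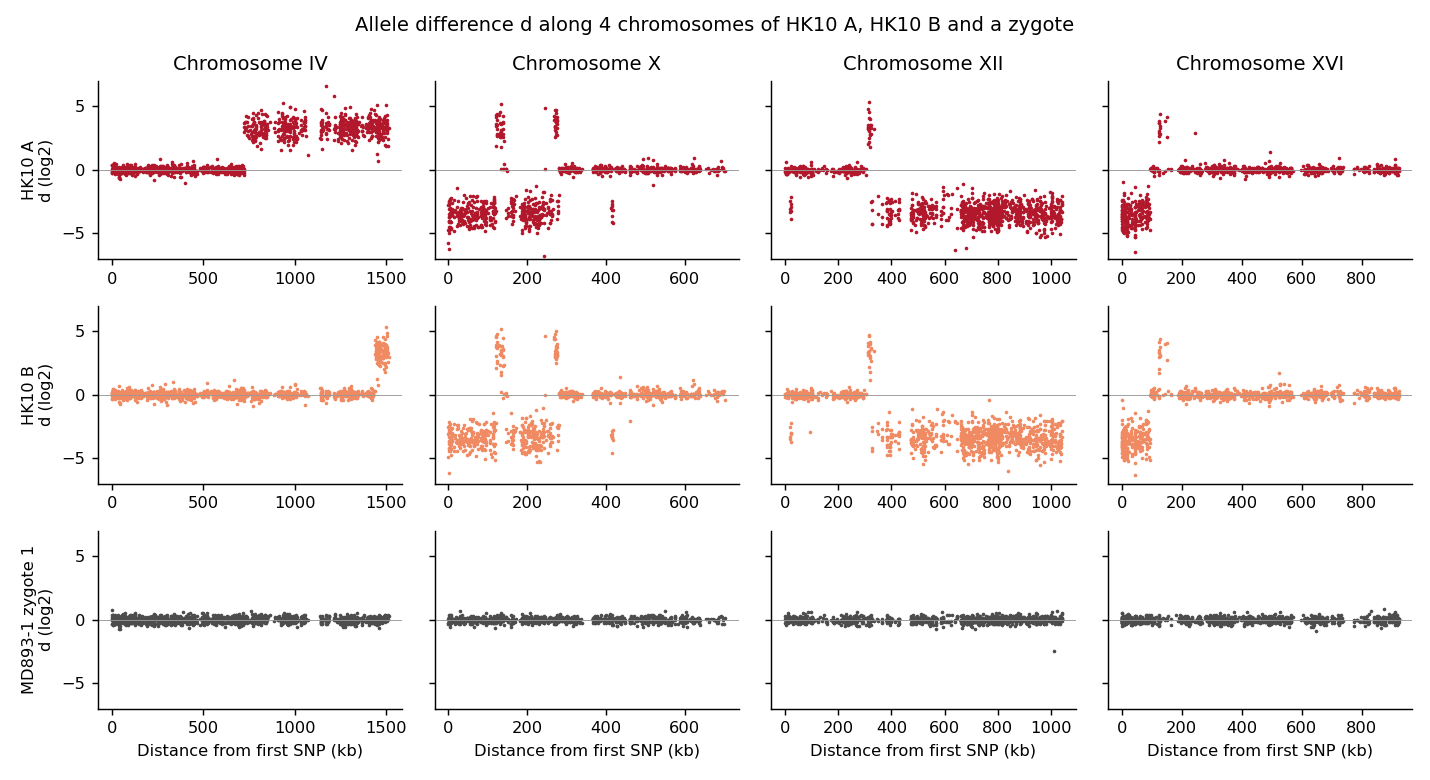
Difference d (log2, y axis) against distance from the first SNP in kb (x axis) on 4 chromosomes, each point 1 SNP, for HK10 A (top), HK10 B (middle) and zygote 1 of the MD893-1 cross (bottom). Clouds near 3 are S homozygous, clouds near -3 are Y homozygous. The isolates look alike on X, XII and XVI, while on IV the S homozygous stretch of HK10 A has 596 SNPs and that of HK10 B has 111.

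Terminal tracts, which run to the last measured SNP of an arm, made up most of the homozygous length in both HK10 isolates. Each had 4 of them, which held 88.1% of the LOH length in HK10 A and 81.3% in HK10 B. The remaining 10 tracts of each isolate were interstitial, with heterozygous or opposite homozygous SNPs on both sides, and had a median length of 9.46 kb in either isolate. Not all had heterozygous flanks. Some belonged to unbroken homozygous blocks that reached a chromosome end, with 5 tracts on X and 2 on XII in each isolate.

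Of the 15 different tracts found over the 2 isolates, 13 were present in both HK10 A and HK10 B. The 13 shared tracts had 23 edges that lay inside a chromosome, and 19 of these fell between the same pair of SNPs in A and B. On the SNPs measured in both isolates, 22 of the 23 coincided. The exception was the left edge of the S homozygous tract near the left end of chromosome XVI, which began at position 142517 in A and at 143229 in B. At position 142517 itself d was 2.67 in HK10 A and 1.69 in HK10 B. Edges were resolved to a median of 1.28 kb, from 0.149 to 7.75 kb, the distance between neighbouring measured SNPs.

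Chromosome XII, the home of the tandem ribosomal RNA genes, held the longest stretch common to both HK10 isolates. From position 342522 in HK10 A, and 343223 in HK10 B, to the last SNP at 1058884, both were Y homozygous over 717 kb, with median d of -3.36 in HK10 A and -3.38 in HK10 B. Immediately to the left lay an S homozygous tract from 331220 to 340994, with median d of 3.29 in A and 3.33 in B. The same regions had median d of -0.15 to 0.02 over the 6 zygotes, so no zygote approached either isolate. The largest gap between SNPs on the chromosome, 43.2 kb from 447537 to 490725, lies inside the long Y homozygous tract. A separate Y homozygous tract of 9 SNPs, from 35225 to 42230, stood on the other side of a heterozygous stretch of 289 kb in both isolates. In that stretch the largest absolute d was 0.66 in HK10 A and 2.91 in HK10 B, in which 1 SNP was past 1.5.

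Chromosome X alternated between homozygous states in both HK10 isolates. From the left end it was Y homozygous to 144725, S homozygous from 144874 to 170063, Y homozygous from 171341 to 289211, S homozygous from 292292 to 299865 and Y homozygous from 301002 to 304215. Together these 5 tracts spanned 280 kb without a heterozygous tract between them. Their median d in order was -3.46, 3.13, -3.35, 3.74 and -2.87 in HK10 A. In HK10 B it was -3.47, 3.22, -3.28, 3.42 and -2.56. To the right of 304215, 178 SNPs over 134 kb of HK10 A were heterozygous with a largest absolute d of 0.55, and then a Y homozygous tract of 9 SNPs followed from 437739 to 442525 in both isolates.

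A direct passage from one homozygous state to the other, with at most 10 kb between facing SNPs, was called an allele switch. Each HK10 isolate had 5, of which 4 lay on X and 1 on XII, and each zygote had 0 (exact permutation test, p = 0.0714 with the smaller tail doubled and 0.0357 by absolute difference). A switch needs neighbouring tracts of opposite allele, and no zygote had more than 1 tract. The 0 switches of the zygotes thus followed from their tract counts, and the test adds nothing to that of the tract count. The sharpest switch was on X, where d was -3.21 at 144725 and 3.42 at 144874 in HK10 A, and -2.24 and 3.91 at the same SNPs in HK10 B. In the zygotes d at these SNPs was between -0.52 and 0.26. This switch therefore lay within 0.149 kb in both isolates. The least certain was the passage near 170063, because d at that SNP was 0.05 in A and 0.12 in B. The last SNP past 1.5 on the left was at 165698, which places the switch within 5.64 kb. On the right, d was -3.80 in A and -3.70 in B at 171341. It was near 0 again at 171748, with 0.06 in A and -0.02 in B, and at 172148, with -0.07 in A and -0.06 in B. The right bound of this switch therefore rests on the SNP at 171341.

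On chromosome XVI both HK10 isolates were Y homozygous from the first SNP at 19454 to 114409, with median d of -3.53 in A and -3.47 in B. The next 28 SNPs of HK10 A were heterozygous, and of the 31 in HK10 B 1 was past 1.5. An S homozygous tract then followed to 172113, with median d of 2.85 in A and 3.02 in B. The small tracts on chromosomes II and XIII were Y homozygous in both isolates. The tract on II spanned 285653 to 289315 with 9 SNPs and median d of -3.32 in A and -3.21 in B. The tract on XIII began at 806105, had 5 SNPs, the fewest a tract could have, and showed median d of -3.54 in A and, over the 4 SNPs measured between the same bounds, -3.46 in B.

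**Figure D2:**
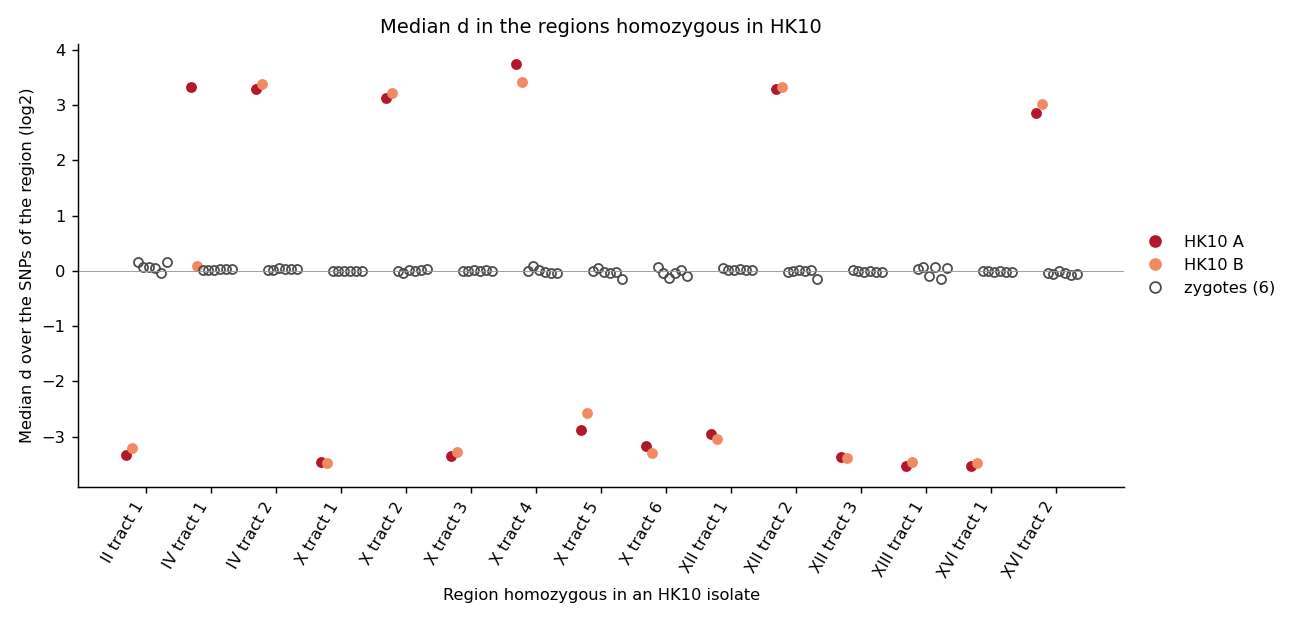
Median d (log2, y axis) of each region that was homozygous in an HK10 isolate (x axis, numbered from left to right along each chromosome), with HK10 A and B as filled points and the 6 zygotes as open points. All zygote points lie between -0.15 and 0.16, and HK10 points lie near 3 or -3 except HK10 B in the first region of chromosome IV.

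Chromosome IV was where the isolates differed. HK10 A was S homozygous from 726278 to the last SNP at 1515286, 789 kb with 596 SNPs, whereas HK10 B was S homozygous from 1441463 to the same end, 75.5 kb with 111 SNPs. Between the 2 starting points the median d was 3.34 over 486 SNPs in HK10 A and 0.05 over 507 SNPs in HK10 B. The zygotes had medians of 0.01 to 0.04 there, with at most 2 SNPs of any zygote past 1.5. To the left of 726278 both isolates were heterozygous, with median d of 0.03 in A and 0.03 in B. To the right of 1441463 both were homozygous for the same allele, with median d of 3.29 in A and 3.37 in B. The share of the genome that was S homozygous was accordingly 7.53% in HK10 A and 1.35% in HK10 B, while the Y homozygous share was 9.38% in A and 9.37% in B.

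A homozygous stretch can arise by copying from the homolog, which keeps both copies, or by deletion, which leaves a single copy of the remaining allele. The signal of each allele in a tract was therefore set against heterozygous SNPs of the same chromosome and array, on the log2 scale. These values describe tracts that were called from the same probes, so no test is given. The lost allele averaged -2.65 ± 0.25 in HK10 A and -2.67 ± 0.24 in HK10 B (SD over 14 tracts of each isolate). The retained allele averaged 0.66 ± 0.05 in HK10 A and 0.60 ± 0.09 in HK10 B, and was above 0 in every tract of both isolates, from 0.58 to 0.73 in A and 0.43 to 0.75 in B. In the zygotes the same regions lay between -0.18 and 0.24 for the allele that HK10 retained and between -0.17 and 0.24 for the allele that HK10 lost.

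**Figure D3:**
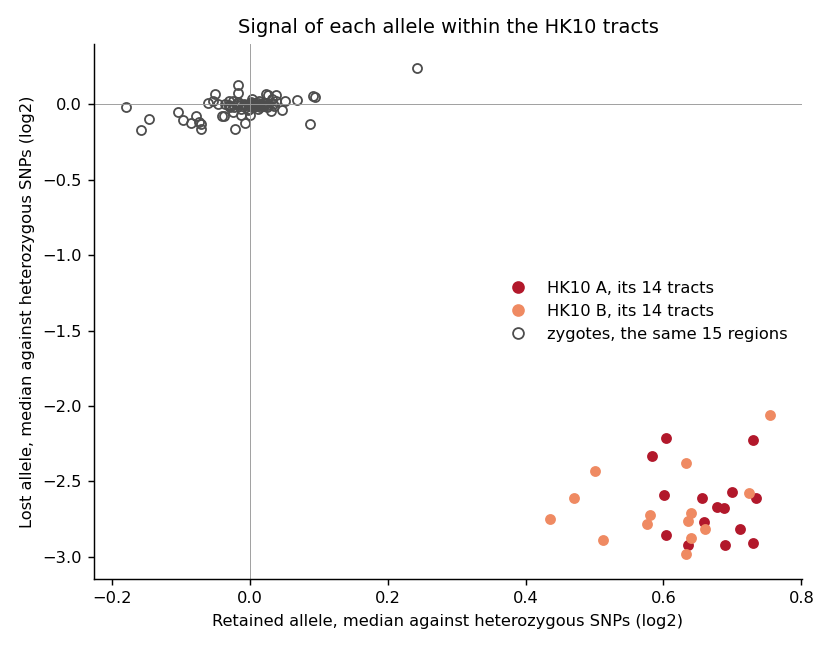
Median signal of the lost allele (y axis, log2) against that of the retained allele (x axis, log2) in each HK10 tract, both relative to heterozygous SNPs of the same chromosome and array. HK10 A and B (filled points) lie at retained values of 0.43 to 0.75 and lost values of -2.99 to -2.06, and the 6 zygotes (open points) lie around 0 on both axes.

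Probes of the lost allele were also more often without a value. In the tracts of HK10 A, 10.9% of lost-allele probes and 3.30% of retained-allele probes were missing, against 5.20% outside tracts. In the tracts of HK10 B the shares were 11.1% for the lost allele and 9.15% for the retained allele, against 5.29% outside tracts. The retained-allele share thus differed between the isolates, and the reason was not tested.

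Within the shared homozygous regions nearly every SNP of HK10 followed its tract. Of 1677 SNPs measured in both isolates, 1646 (98.2%) had d past 1.5 toward the retained allele in both A and B. The tracts were called from the same values of d, so a high share is set by the calling and adds no support. The 12 SNPs that stayed near 0 in both isolates, under 0.75 in size, all lay among the 316 SNPs of interstitial tracts (3.80%). None lay among the 1361 SNPs of the terminal ones. There were 4 each in the S homozygous tract of X that starts at 144874 and in the S homozygous tract of XVI, 3 in the central Y homozygous tract of X, and 1 in the small tract of XII. Those 2 S homozygous tracts, singled out after their values were seen, had near-0 values at 15.1% of 53 SNPs, against 0.246% of 1624 SNPs in the other 12 regions. Of those 1624 SNPs, 1361 were in terminal tracts. Whether the probes of these SNPs respond to loss of an allele was not tested.

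Single SNPs with the opposite allele were present at 2 places, and at both the isolates had the same state. At position 269803 of X, inside a Y homozygous tract, d was 4.85 in HK10 A and 4.61 in HK10 B, against -0.19 to 0.42 in the zygotes. At 352604 of XII, near the start of the long Y homozygous tract, d was 3.24 in A and 3.47 in B, against -0.20 to 0.06 in the zygotes. In both cases the Y probes were the ones that fell, with log2 signals of -4.49 and -4.60 at the X SNP and -2.67 and -2.80 at the XII SNP in HK10 A and B, so the 2 isolates did not differ in direction at either.

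Outside the tracts, 8 SNPs in 4 patches too short to be tracts had d past 1.5 in both HK10 isolates and under 0.75 in every zygote. All 8 were toward the Y allele. The longest patch was on chromosome V, where d at 139257, 140419, 141108 and 141767 was -3.53, -3.34, -2.17 and -2.86 in HK10 A. In HK10 B it was -6.43, -3.47, -2.09 and -2.95 at the same SNPs, against -0.45 to 0.38 in the zygotes. Its neighbours at 137832 and 144252 were heterozygous in both isolates, so the patch was between 2.51 and 6.42 kb long.

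The second patch of more than 1 SNP was on chromosome VII. At 924890 and 926456, d was -3.38 and -2.82 in HK10 A and -3.58 and -3.08 in HK10 B, against -0.14 to 0.23 in the zygotes. The other 2 patches were single SNPs. At 311594 of chromosome II, 22.3 kb from the tract on that chromosome, d was -3.72 in A and -3.82 in B, and at 422983 of VIII it was -3.59 in A and -3.86 in B. As background, d was past 1.5 in either direction at 18 SNPs outside tracts in HK10 A and 23 in HK10 B, and at 8 to 55 in the zygotes. Only 9 of these SNPs were shared by A and B. No SNP of A alone, and 6 of B alone, met the same conditions with the other isolate near 0.

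**Figure D4:**
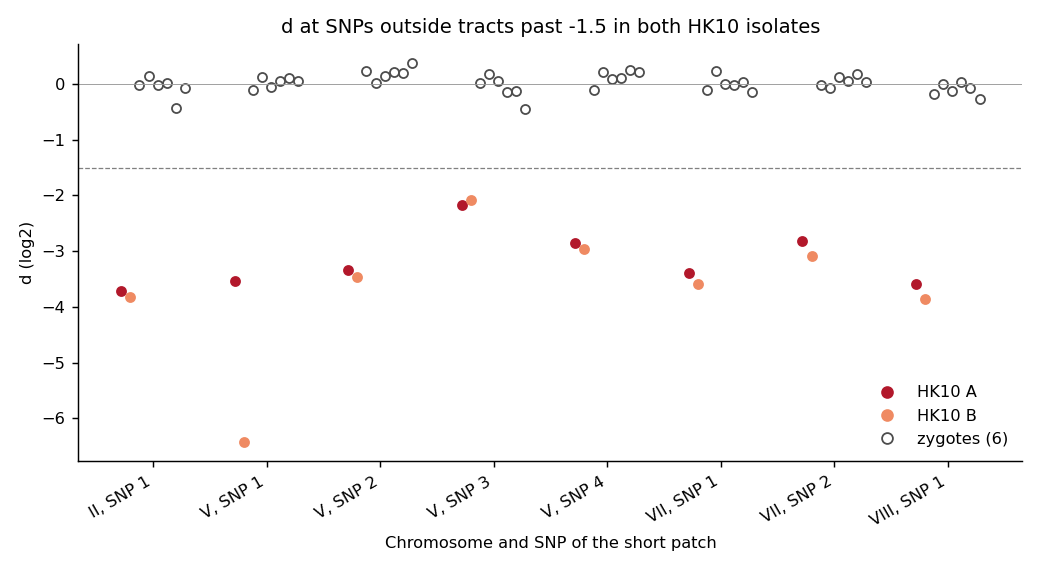
Values of d (log2, y axis) at the 8 SNPs of the short patches (x axis, by chromosome and order along it), for HK10 A and B (filled) and the 6 zygotes (open). The dashed line marks -1.5, and every HK10 point lies below it while every zygote point lies above -0.46.

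The same comparison was made SNP by SNP with limma, fitted over all SNPs measured in both HK10 isolates and at least 4 zygotes. A call needed a Benjamini-Hochberg adjusted p under 0.05 and a difference of at least 1 on the log2 scale. SNPs are linked along chromosomes, so the counts are of SNPs and not of events. The tracts were called from the same values of d, so the calls inside them restate the tracts and add no support. Of 12632 SNPs, d was higher in HK10 at 200 (1.58%) and lower at 1471 (11.6%). The lower calls were nearly all in Y homozygous regions, where 1462 of the 1470 SNPs tested were called, with a median difference of -3.42. The S homozygous regions common to A and B held 192 of the higher calls, among 201 SNPs tested, with a median difference of 3.33.

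The stretch of chromosome IV that was homozygous in HK10 A alone gave 2 calls of d among 484 SNPs, with a median difference of 1.68, the mean of a shifted and an unshifted isolate. Without HK10 B the number of SNPs with higher d was 692. A chromosome II stretch that was called Y homozygous on all 8 arrays was left out. Outside the regions homozygous in both isolates or in A on chromosome IV, limma then called 13 of 10468 SNPs. The SNPs of the 4 short patches made up 8 of these, which had also been chosen by their d. The other 5 were single SNPs at 465834 and 753741 of II, 554932 of V, 543027 of X and 142517 of XVI, the last being the edge at which A and B differed.

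Each allele was then fitted on its own, with signals that also enter d. The S signal was lower in HK10 at 1500 of 13153 SNPs (11.4%), of which 1489 lay in Y homozygous regions. It was higher by at least 1 at 1 SNP (0.0076%). The Y signal was lower at 270 of 12870 SNPs (2.1%), with 193 in S homozygous regions common to both isolates and 69 in the stretch of IV that only HK10 A had lost. Without HK10 B the number of SNPs with a lower Y signal was 695. With both isolates fitted, the Y signal was higher at 12 SNPs (0.0932%). The retained allele moved by less than the minimum size of a call, with a median difference of 0.54 for S in S homozygous regions and 0.52 for Y in Y homozygous regions.

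The signal of both alleles together, s, differed between chromosomes in HK10 and hardly at all in the zygotes. It is the mean log2 ratio of S and Y probes, centred on each array's SNPs outside tracts, and was summarised as a median per chromosome. By limma over the 16 chromosomes at an adjusted p under 0.05, 8 were higher in HK10 (50%) and 7 were lower (43.8%), and 15 of the 16 did not overlap with the zygotes. Chromosome II was the exception, with an exact permutation p of 0.643 (smaller tail doubled). For each of the other 15 that p was 0.0714, the smallest that 2 against 6 arrays allow. All zygote medians lay between -0.05 and 0.02.

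The shortest chromosomes had the highest s in HK10. On chromosome I it was 0.68 in HK10 A and 0.64 in HK10 B, against -0.05 to -0.02 in the zygotes. On VI it was 0.62 in A and 0.59 in B, on III 0.43 in A and 0.45 in B, and on IX 0.27 in A and 0.26 in B. These 4 are the chromosomes whose assayed length was under 450 kb. Their differences from the zygotes were 0.69 ± 0.01, 0.62 ± 0.01, 0.45 ± 0.01 and 0.28 ± 0.01 (SE), with limma adjusted p of 9.9e-12, 4.24e-11, 4.32e-10 and 2.1e-09. The exact permutation p was 0.0714 for each. The limma p-values take A and B, isolates of a single name, as replicates. Each probe set gave the same picture, since on chromosome I the S probes alone gave 0.60 in A and 0.58 in B, and the Y probes alone gave 0.74 in A and 0.71 in B.

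Chromosomes with long tracts were pulled down by the lost allele and have to be read on SNPs outside all tracts. On XII s was -1.06 in HK10 A and -1.14 in HK10 B over all SNPs, and -0.20 in A and -0.19 in B over SNPs in no tract. On X it was -0.29 in A and -0.36 in B over all SNPs, and 0.04 in A and 0.04 in B outside tracts, so its difference from the zygotes turned from -0.33 to 0.03. On IV it was -0.30 in A and -0.17 in B over all SNPs, and -0.16 in A and -0.15 in B outside tracts. Over SNPs in no tract the 6 chromosomes longer than 900 kb had s of -0.20 to -0.04 in the HK10 isolates. The 6 of intermediate length had -0.01 to 0.16. Chromosome XIV was higher by 0.02 with an adjusted p of 0.0212 by limma. Its sign turned to -0.01 when s was centred on the mean of the chromosomes, and the adjusted p by limma was 0.725 on forward-strand probes, 0.695 on reverse-strand probes and 0.101 without HK10 B.

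**Figure D5:**
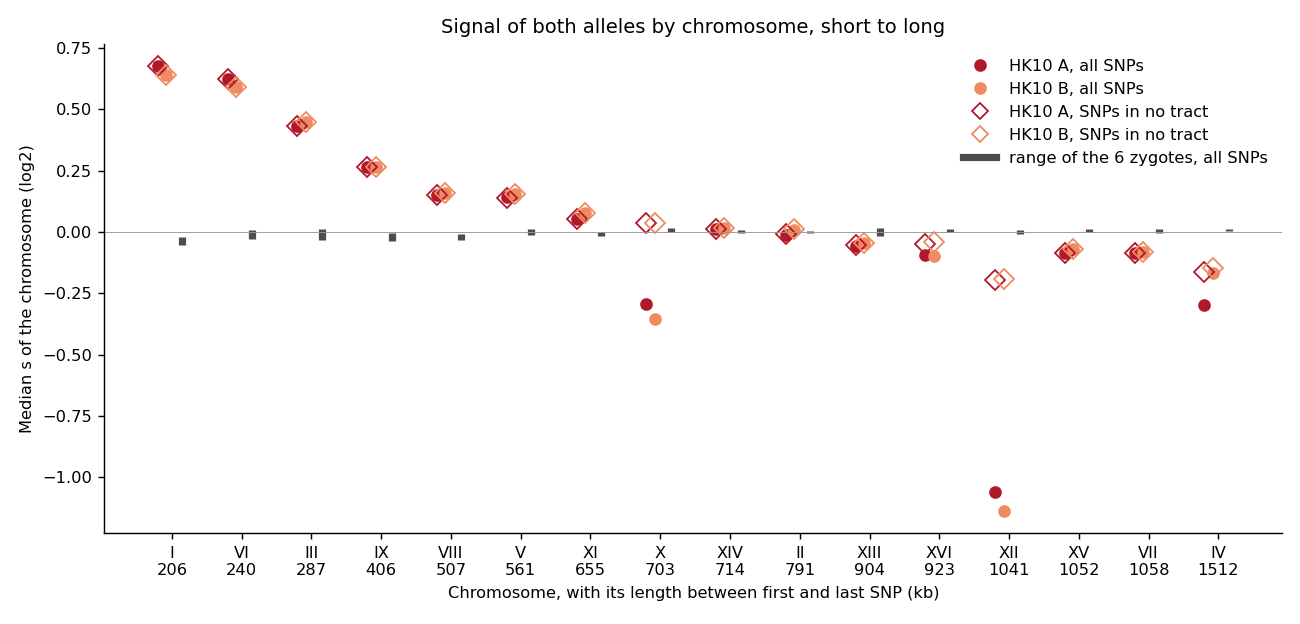
Median s (log2, y axis) of each chromosome, ordered from short to long (x axis, with assayed length in kb), for HK10 A and B over all SNPs (filled circles) and over SNPs in no tract (open diamonds), with the range of the 6 zygotes as grey bars. HK10 lies at 0.68 and 0.64 on chromosome I and near -0.2 on XII outside tracts, and the zygotes lie within -0.05 and 0.02.

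Pooled over the chromosomes of a length class, s in HK10 varied with distance from the chromosome ends. The bins hold different mixes of chromosomes, with 22 SNPs of I but 109 of IX within 20 kb of an end. Within chromosomes, s within 20 kb of an end less s further in was 0.03 in A and 0.06 in B on I. It was 0.01 and -0.02 on VI, -0.02 and 0.03 on III, and -0.01 and 0.02 on IX. The largest such difference, X aside, was 0.15 in A and 0.14 in B on XV. On the chromosomes under 450 kb, s within 20 kb of the first or last SNP was 0.41 in HK10 A and 0.41 in HK10 B, and from 50 to 100 kb it was 0.55 in A and 0.52 in B, and from 100 to 200 kb it was 0.32 in A and 0.30 in B. On chromosomes of 450 to 900 kb it was 0.10 in A and 0.12 in B within 20 kb, and 0.03 in A and 0.04 in B more than 200 kb from an end. On chromosomes over 900 kb it was -0.08 in A and -0.05 in B within 20 kb, and -0.09 in A and -0.09 in B more than 200 kb from an end. Forward-strand and reverse-strand probes differed by at most 0.0443 in the HK10 mean of any chromosome, which is small beside the 0.69 of chromosome I. What sets these shifts was not tested.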

How the data were processed

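Genomic DNA of each isolate (Cy5) was hybridised with DNA of JSC24 (Cy3), per the labels' protocols. Per probe and array the deposited table holds a linear ratio, isolate over control, for 53664 probes, and every array's ratios average 1 in the deposited values. How background was corrected, which probes were filtered and the genome build were not given in the sources used here. In all, 219 probes had no value on any array. Grouping followed the titles, since the source names read MD891 or MD892 for the zygotes.

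The log2 of each ratio was shifted so that every array had a median of 0, without loess or quantile normalization. For each of 13461 SNPs, d was the mean of the S probes less the mean of the Y probes. Tracts came from a hidden Markov model with Student t emissions (4 degrees of freedom), centres 0, 3 and -3, homozygous scale 0.8, array noise of at least 0.1 and a state change of 0.0001 per SNP. Tract ends were put midway to the next SNP, and tracts found in all zygotes of a cross, with ends within 3 SNPs, were left out. Values over arrays were compared by exact permutation tests in SciPy 1.17.1, with the smaller tail doubled, and values over SNPs and chromosomes by limma 3.58.1 with eBayes. Both steps were tested on simulated data. Alternatives covered thresholds, caller, strand, normalization, design and leaving out each array. All tracts, switches, chromosomes and patches of at least 2 SNPs were named by rule. The members and lists were chosen with earlier results of these data known. SNP spacing (median 368 bp) limits which tracts are visible, and few arrays limit every comparison.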

Additional observations from a re-analysis of the deposited data

Results flagged for a closer look

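HK10, with 2 isolates, was too small to be screened for outlying arrays, so the screen covered 20 measures over the 6 zygotes and over the 4 zygotes of the MD893-1 cross, using Dixon's gap against the range. Chance marks about 1 in 20 groups, and 2 and 4 values stood apart in the 2 sets. Zygote 2 of the MD893-2 cross had a noise of d of 0.235, against 0.126 to 0.162 in the other zygotes, and a chromosome VIII s of -0.0326, against -0.0131 to -0.00629. Among the MD893-1 zygotes, zygote 2 had 1 tract and 0.0264% of the genome in LOH where the others had 0. Both marks came from the same chromosome V call. Any value that alone differs from equal others is marked, so the chance rate above does not apply to them. Zygote 1 had a chromosome VIII s of -0.00629, against -0.0131 to -0.0122, and zygote 3 a chromosome XVI s of 0.0116, against 0.00376 to 0.005. HK10 s on VIII was 0.15 in A and 0.16 in B, and on XVI outside tracts -0.05 in A and -0.04 in B, beyond these zygote values.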

How the results depend on the processing

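The differences in tract count, share in LOH and switches between HK10 and the zygotes kept their direction under every alternative run, with exact p of 0.0714 or more where the smaller tail was doubled. By absolute difference, added after seeing the data, p was 0.0357 for the differences of 13.7 tracts, 13.8 percentage points in LOH and 5 switches. With HK10 as 1 value the doubled p was 0.286. The difference in tract count was 9 with at least 10 SNPs per tract and 30.3 when tracts were runs of SNPs past 1.5, which single SNPs break. Switches numbered 4 in each isolate with a gap of at most 3 kb or at least 10 SNPs per tract, and 6 with a gap of at most 30 kb. With runs of SNPs past 1.5 there were 4 switches in HK10 A and 3 in HK10 B. Leaving out HK10 A gave a difference of 10.7 percentage points in LOH, and leaving out HK10 B 16.9.

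SNPs with d higher in HK10 numbered 195 to 692 when each array was left out in turn, S signal higher 0 to 8, Y signal higher 9 to 30 and Y signal lower 205 to 695, the upper ends for d and Y without HK10 B. The Y signal higher count was also 24 without zygote 2 of the MD893-1 cross and 19 without zygote 1 of the MD893-2 cross, and the S signal higher count 8 without HK10 A, 5 without HK10 B, 3 without zygote 1 or 2 and 2 without zygote 4 of the MD893-1 cross, and 0 without zygote 2 of the MD893-2 cross. S signal higher was called at 1 SNP, against 1327 with no minimum size (1140 of them outside the homozygous regions), 0 at a minimum of 2, 8 with each cross its own group, 16 after quantile normalization, 11 on forward-strand and 21 on reverse-strand probes. Y signal higher was called at 12 SNPs, against 2243 with no minimum size (1050 outside), 0 at a minimum of 2, 19 with each cross its own group, 60 on forward-strand and 58 on reverse-strand probes. Y signal lower was 270, against 678 with no minimum size and 107 after quantile normalization, which also gave 865 for S signal lower against 1500. The cause was not tested. At a size of at least 0.2, 4 chromosomes were higher and 3 lower, and on SNPs outside tracts, added after seeing the data, 4 were higher and 0 lower. X turned to 0.0326 outside tracts and XIV to -0.0129 when centred on the mean of the chromosomes. Of 208 alternatives for single chromosomes, 3 lost a call, 2 gained one, and 2, those of X and XIV above, stayed called with the sign turned. The other 201 were as in the main fit, called or not, and of these chromosome II, not called, changed sign without HK10 A. Strand choices for the allele levels were added after seeing the data and moved none by more than its SD. No paired analysis was possible because HK10 isolates carry letters and zygotes carry numbers.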

Other observations

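At chromosome II, 469650 to 474265, all 8 arrays were called Y homozygous over 9 SNPs. Median d was -3.45 in HK10 A and -3.25 in HK10 B, and -3.69 to -2.17 in the zygotes. The median S signal was -3.64 in HK10 A and -3.48 in HK10 B, and -3.71 to -2.58 in the zygotes. The median Y signal was not raised, at -0.25 in HK10 A and -0.12 in HK10 B, and -0.34 to -0.07 in the zygotes. How many copies of the Y allele were present was not tested. At XV, 370120 to 371629, 5 zygotes were called S homozygous, with median d of 1.92 to 2.44 over the 6 zygotes. Their median S signal there was 1.35 to 1.72 and their median Y signal -0.80 to -0.51, so S was raised by more than Y was lowered. HK10 had 3 of 5 SNPs measured in A, with a median d of 2.13, and 2 in B, with a median of 1.48, too few for a call. The chromosome V call of 2 zygotes lay at 31251 to 33770, where the median S signal of those zygotes was 0.09 and 0.11 and the median Y signal 1.90 and 1.73. The uncalled zygotes had median d of -1.89 to -1.04 there, with S of 0.09 to 0.19 and Y of 1.14 to 1.96. They had 2 to 4 SNPs measured, too few for a call, against 5 in the called zygotes. HK10 had median d of -1.44 in A and -0.84 in B there, over 3 and 2 SNPs.

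The left end of chromosome XV, chosen after its values were seen, departed from the rest of that chromosome in HK10. Over 36 SNPs from 12064 to 31416, s was 0.08 in HK10 A and 0.07 in HK10 B, against -0.04 to 0.03 in the zygotes, while the inner 1216 SNPs of XV had s of -0.09 in A and -0.08 in B, against 0.00 to 0.01 in the zygotes.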
